A study of Mus musculus with 6 samples.

Results

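The imprinted Prader-Willi and Angelman region of mouse chromosome 7 was followed through 9 genes in neural stem cells that lack Smchd1. The 9 genes were Ndn, Magel2, Mkrn3, Peg12, Snrpn, Snurf, Ube3a, Atp10a and A330076H08Rik, taken by name and found by Entrez gene ID among the 27179 records of the deposited count files. All 9 had a record, and 8 of them passed the filter on low counts and were among the 14207 genes tested. RNA from 6 male cultures was sequenced: 3 Smchd1 null libraries, homozygous for the MommeD1 allele (Smchd1MommeD1/MommeD1), and 3 Smchd1 wild-type libraries. All 6 share the strain C57BL/6 x FVB/N, an origin in E14.5 embryonic brain, and growth in EGF and bFGF at 20 ng/ml each. MommeD1 is a nonsense allele inherited through the germ line, so these cells came from embryos that developed without a working copy of the gene, and the loss was not made in culture. No label says whether the 3 libraries of a genotype came from separate embryos or from 1 line, so the p-values measure the spread between these libraries, which may be technical.

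Imprinted genes are expressed from 1 parental allele. In this domain Ndn, Magel2, Mkrn3, Peg12, Snrpn and Snurf are expressed from the paternal chromosome, and their maternal copies are kept silent under the control of an imprinting centre at the Snrpn promoter that carries DNA methylation on the maternal chromosome. Ube3a, which encodes a ubiquitin ligase, is expressed from the maternal allele in mature neurons, where the long antisense transcript Snhg14 silences the paternal copy, while most other cells use both copies. In people, loss of the paternally expressed genes gives Prader-Willi syndrome, and loss of maternal UBE3A gives Angelman syndrome. Smchd1 encodes a chromatin protein of the SMC family that helps keep genes silent on the inactive X and at some autosomal clusters, imprinted ones among them. The counts do not separate the parental alleles, so which allele gave the RNA was not measured.

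Within the domain, 4 members were higher in Smchd1 null cells and none was lower. Ndn, Mkrn3 and Peg12, neighbours at one end of the domain, were each close to double their wild type level, and the long noncoding RNA A330076H08Rik was 4.72-fold higher. Magel2 and Snrpn lay higher by a similar size at very low counts and did not pass. Ube3a and Atp10a, at the other end, had fold changes close to 1. Of all 14207 genes tested, 0.507% were called higher and 0.0704% lower at an adjusted p under 0.05 (edgeR quasi-likelihood test, Benjamini-Hochberg). Against that background, 4 of the 8 tested members were called higher. Their median log2 fold change was 0.94, beside 0.00 for all genes tested. The members were chosen with earlier results of these data known, so these contrasts describe them and are not independent evidence. These are bulk samples, so more RNA per cell and more cells of an expressing kind cannot be told apart.

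Library totals ran from 18608881 to 19137666 counts in the null group and from 19504879 to 23253367 in the wild type group. Wild type replicate 3 stood apart, with 58.3% of its reads on the few records that exceed 1% of a library; elsewhere these held 5.84% to 11.7%. Its effective depth after TMM scaling was 10.1 M counts, against 21.3 to 25.8 M for the others, so 1 read in it is worth 0.0992 CPM and between 0.0388 and 0.0470 CPM elsewhere. Leaving it out raised the calls from 82 to 5676 genes. Of the genes then tested, 19.7% were called higher and 19.4% lower, the background for every call given below without that library. Wild type replicate 3 is also the only wild type library whose sample-name number lies in the range of the null libraries. Calls made without it therefore cannot separate genotype from the range of these numbers. CPM here are counts divided by the TMM-scaled depth in M. Smchd1 itself was at 29.7 ± 1.68 CPM in null and 254 ± 20.0 CPM in wild type cells (mean ± SD, n = 3), a direction that matches the labels. All 11 neural stem cell markers listed, Nes and Sox2 among them, were tested, and none was called. Of all genes tested 0.577% were called, so 0 of 11 says little about these markers. Their log2 fold changes ran from -0.39 ± 0.10 (SE) for Hes1 (edgeR adjusted p = 0.137) to 0.18 for Notch1, with a median of -0.01. Summed markers of microglia, endothelium and fibroblasts reached at most 2.48, 2.01 and 1.52 CPM in null and 2.90, 2.78 and 1.59 CPM in wild type libraries.

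**Figure D1:**
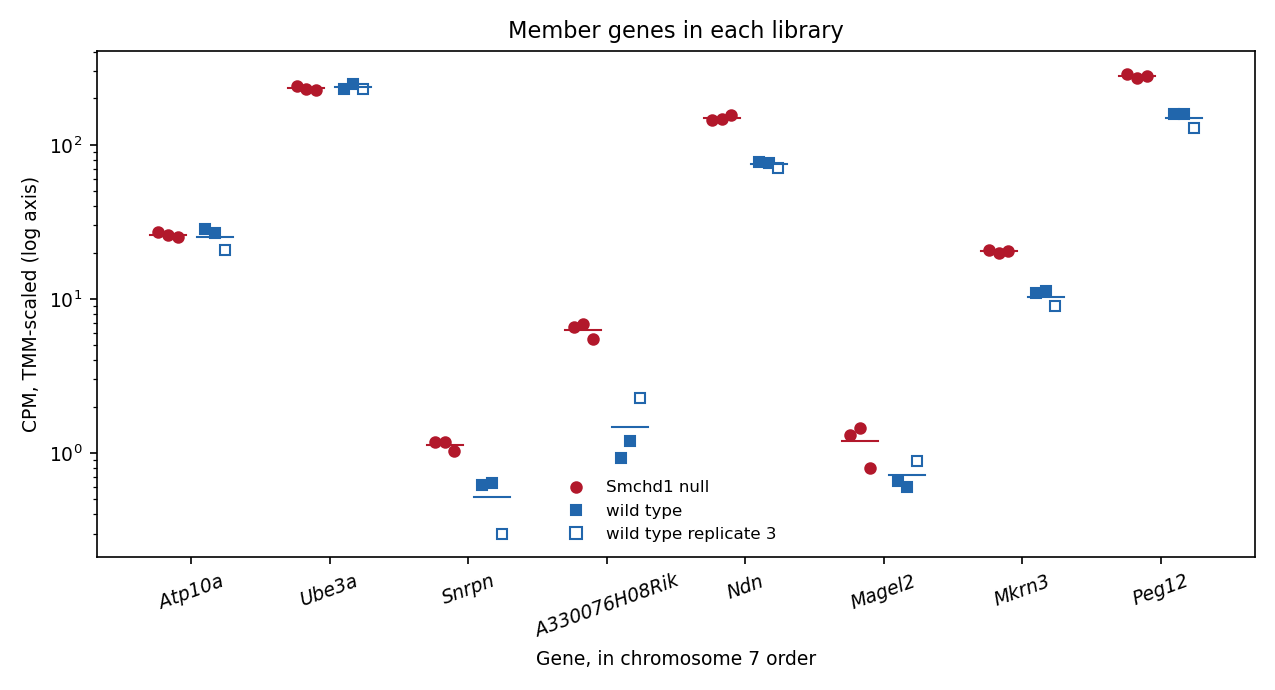
Level of each member in each library, in CPM on a log axis, with genes in chromosome order; red circles are Smchd1 null libraries, blue squares wild type libraries, the open square is wild type replicate 3, and lines are group means. Snurf, at 0 counts in all 6 libraries, is left out. The null libraries sit above all wild type libraries for Snrpn, A330076H08Rik, Ndn, Mkrn3 and Peg12, and among them for Ube3a and Atp10a. Of all genes tested, 11.4% had every null library above every wild type library.

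The 4 members called higher are shown first by their promoters. Each window runs 250 bases before to 50 bases after the start of the RefSeq gene (build GRCm38.p6), 5′ to 3′ on the strand of the gene, with CG dinucleotides, the sites where DNA methylation is set, in capitals. The windows are chr7:62348027-62348326 on the plus strand for Ndn, and on the minus strand chr7:62420104-62420403 for Mkrn3, chr7:62464461-62464760 for Peg12 and chr7:61982306-61982605 for A330076H08Rik.
Ndn: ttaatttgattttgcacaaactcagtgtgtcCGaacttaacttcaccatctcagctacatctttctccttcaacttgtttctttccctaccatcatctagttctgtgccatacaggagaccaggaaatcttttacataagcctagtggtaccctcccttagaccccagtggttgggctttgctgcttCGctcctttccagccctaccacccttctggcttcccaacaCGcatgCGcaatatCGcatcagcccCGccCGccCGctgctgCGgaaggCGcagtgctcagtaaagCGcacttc
Mkrn3: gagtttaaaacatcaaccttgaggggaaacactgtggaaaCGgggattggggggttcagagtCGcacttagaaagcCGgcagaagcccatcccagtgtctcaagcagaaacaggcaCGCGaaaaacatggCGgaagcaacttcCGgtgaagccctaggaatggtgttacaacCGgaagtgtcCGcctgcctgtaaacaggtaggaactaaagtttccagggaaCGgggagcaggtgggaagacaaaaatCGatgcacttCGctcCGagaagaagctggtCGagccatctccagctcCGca
Peg12: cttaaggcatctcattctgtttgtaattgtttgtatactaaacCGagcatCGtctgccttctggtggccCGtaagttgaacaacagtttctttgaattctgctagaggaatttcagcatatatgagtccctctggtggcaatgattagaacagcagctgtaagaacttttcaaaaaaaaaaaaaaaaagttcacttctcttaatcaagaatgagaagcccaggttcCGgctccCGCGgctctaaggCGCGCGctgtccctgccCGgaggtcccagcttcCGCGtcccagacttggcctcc
A330076H08Rik: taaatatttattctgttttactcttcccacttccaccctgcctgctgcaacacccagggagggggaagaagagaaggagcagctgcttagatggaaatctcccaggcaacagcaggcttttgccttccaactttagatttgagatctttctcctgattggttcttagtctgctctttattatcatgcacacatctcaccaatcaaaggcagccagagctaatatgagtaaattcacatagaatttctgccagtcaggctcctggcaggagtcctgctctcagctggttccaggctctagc

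The Ndn, Mkrn3 and Peg12 windows held 11, 15 and 12 CG dinucleotides, and the A330076H08Rik window held 0. Across 32851 promoter windows of the same length the median was 7, and 5.43% had none. The letters GCATGCG, the core of the motif of the activator NRF1, were searched on both strands. They occurred in the Ndn window, where the matches on the 2 strands overlap in 1 place, and in the 4 Snrpn windows, among them the one shared with Snurf at the imprinting centre, but not in those of Mkrn3, Peg12 or A330076H08Rik. Of all windows 3.58% held this motif. The ETS motif CCGGAAGT occurred 2 times in the Mkrn3 window and in no other member's window, while 3.89% of all windows held it. No motif of this pair was common to the 4 windows, and a match describes the letters of a window only.

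Ndn encodes necdin, a MAGE family protein of post-mitotic neurons and progenitors that restrains E2F1. Ndn (Entrez 17984, chromosome 7, 62348277 to 62349928, plus strand, 1 exon) had 3078, 3121 and 3477 counts in the null libraries and 2002, 1791 and 712 counts in wild type replicates 1, 2 and 3. Scaled, these were 144.6, 146 and 155.001 CPM in null cells, against 77.6, 76.4 and 70.6 CPM in wild type cells. Every null library was well above every wild type library, and the shallow wild type replicate 3 lay with the other 2. The log2 fold change was 0.99 ± 0.06 (SE; 95% interval 0.84 to 1.13), and edgeR gave an adjusted p of 0.000405, the fourth smallest p of all genes tested.

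Peg12, also called Frat3, is an intronless gene of the FRAT family, whose proteins bind the kinase GSK3 and promote Wnt signalling. It lies at 62461871 to 62464510 on the minus strand, the last member of the domain. Its counts were 6155, 5797 and 6244 in null and 4081, 3720 and 1293 in wild type libraries. In CPM it stood at 289, 272 and 278 in null cells, and at 158, 159 and 128 in wild type replicates 1 to 3. The groups were far apart, with wild type replicate 3 the lowest of the 6. Its log2 fold change was 0.91 ± 0.09 (SE; 95% interval 0.71 to 1.12, edgeR adjusted p = 0.00281).

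Mkrn3 encodes a makorin RING-finger ubiquitin ligase, known in people as a brake on the onset of puberty. The gene spans 62417593 to 62420153 on the minus strand and also has a single exon. Null libraries held 440, 422 and 461 counts, or 20.7, 19.8 and 20.6 CPM, and wild type libraries 280, 263 and 90 counts, or 10.9, 11.2 and 8.93 CPM. The 3 null values lay within 1 CPM of each other and above all wild type values. The log2 fold change of 0.96 ± 0.11 (SE; 95% interval 0.72 to 1.20) had an edgeR adjusted p of 0.00517. That call was lost without null replicate 1 (adjusted p = 0.0617) or null replicate 3 (adjusted p = 0.0606), with the fold change at 0.95 each time.

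Magel2, a MAGE gene between Ndn and Mkrn3 whose protein acts in endosomal recycling with the WASH complex, was barely detected. It had 28, 31 and 18 counts in null and 17, 14 and 9 counts in wild type libraries, in a single exon of an annotated gene at 62376979 to 62381640. These are 1.32, 1.45 and 0.802 CPM in null cells, and 0.659, 0.597 and 0.893 CPM in wild type cells. The groups overlapped, since null replicate 3 was below wild type replicate 3. Its log2 fold change of 0.79 ± 0.31 (SE; 95% interval 0.07 to 1.50) had an edgeR adjusted p of 0.240, and an interval of that width holds both the size seen in its neighbours and almost no change. Pooled over the libraries of a group the ratio of null to wild type was 1.76, with an exact binomial 95% interval of 1.18 to 2.64 that covers counting error only. Without wild type replicate 3 Magel2 was called, at 0.90 (adjusted p = 0.0366). In that fit genotype and the range of sample-name numbers coincide.

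Snrpn encodes SmN, a core protein of the splicing machinery in brain, and the upstream frame of the same transcript encodes Snurf. The 2 records have the same lower bound in the RefSeq gene table, at 59982495. All exonic bases of Snurf in GENCODE M21 lie in exons of Snrpn or of Gm38393, on the same strand. Snurf had 0 counts in each of the 6 libraries, which allows up to 0.141 CPM in the null libraries and up to 0.298 CPM in wild type replicate 3 (3 counts, counting error only). How the deposited counting treated reads that fit both records is not given in the sources used here, so neither count measures the level of the shared transcript. Under that limit Snrpn had 25, 25 and 23 counts in null and 16, 15 and 3 counts in wild type libraries. Scaled, the null libraries stood at 1.17, 1.17 and 1.03 CPM, and the wild type libraries at 0.62, 0.640 and 0.298 CPM. The groups did not overlap, a pattern with every null library on top that 11.4% of all tested genes shared. Snrpn had a log2 fold change of 0.99 ± 0.29 (SE; 95% interval 0.33 to 1.65, edgeR adjusted p = 0.172). It was called without wild type replicate 3 (0.83, adjusted p = 0.0340).

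A330076H08Rik, a long noncoding RNA also listed as Mirh1, lies 366 kb before Ndn and showed the largest fold change of the members. It spans 61943895 to 61982355 on the minus strand. The null libraries held 139, 147 and 124 counts, and the wild type libraries 24, 28 and 23. In CPM these were 6.53, 6.89 and 5.53 in null cells, against 0.930, 1.19 and 2.28 in wild type replicates 1 to 3. The groups were far apart, and wild type replicate 3 was the highest of its group. Its log2 fold change was 2.24 ± 0.28 (SE; 95% interval 1.59 to 2.88), with an edgeR adjusted p of 0.00999. Leaving out null replicate 1, 2 or 3, or wild type replicate 1 or 2, ended the call each time (adjusted p 0.0564 to 0.115, log2 fold change 1.97 to 2.30). Without wild type replicate 3 it was called at 2.57. Among the libraries whose sample names carry 11 to 14, where wild type replicate 3 is the only wild type library and is assumed to vary like the null ones, it was called at 1.46 (adjusted p = 0.00223), in a fit that called 0.853% of genes higher and 1.69% lower.

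The A330076H08Rik locus and its neighbour A230057D06Rik hold hairpins of the miR-344 family, small RNAs that pair with target mRNAs through bases 2 to 8, the seed. Between Snrpn and Ndn the RefSeq table places 13 miR-344 hairpins, of which 7 lie inside A230057D06Rik. Only 1, Mir344-2, lies wholly inside A330076H08Rik as GENCODE draws it, beyond the RefSeq limits given above. The hairpin of Mir344g crosses the end of A330076H08Rik, with both of its mature forms inside. Mature sequences are shown 5′ to 3′ with the seed in capitals, as RefSeq gives them (GRCm38.p6), for the hairpin inside A330076H08Rik, whose mature form also comes from a hairpin inside A230057D06Rik, and for 3 more forms from inside A230057D06Rik.
mmu-miR-344-3p: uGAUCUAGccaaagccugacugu
mmu-miR-344c-3p: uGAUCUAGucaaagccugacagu
mmu-miR-344d-3p: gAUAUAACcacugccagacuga
mmu-miR-344e-3p: gAUAUAACcaaagccugacuau

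The first pair share the seed GAUCUAG and the second pair the seed AUAUAAC. The libraries were made with a kit for long transcripts, so mature miRNAs were not measured. Reads over the Mir344-2 hairpin record numbered 11, 10 and 3 in null and 2, 0 and 2 in wild type libraries, too few to be tested. A230057D06Rik had 92, 91 and 87 counts in null libraries, and 17, 21 and 30 in wild type libraries, or 4.32, 4.26 and 3.88 CPM against 0.659, 0.895 and 2.98 CPM. As with A330076H08Rik, wild type replicate 3 was the highest wild type library. Its log2 fold change of 1.70 ± 0.46 (SE) did not pass (edgeR adjusted p = 0.158), and without wild type replicate 3 it was 2.42 (adjusted p = 4.86e-07). In the libraries named 11 to 14 it was 0.48 (adjusted p = 0.476).

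Ube3a, at 59228750 to 59310837 on the plus strand, had 5102, 4941 and 5068 counts in null and 5972, 5787 and 2311 counts in wild type libraries. Scaled, these were 239.7, 232 and 226 CPM in null cells, against 231, 247 and 229 CPM in wild type cells. The 2 groups were interleaved. The log2 fold change was -0.02 ± 0.06 (SE), and its 95% interval, -0.17 to 0.12, leaves out a change of the size seen at Ndn (edgeR adjusted p = 0.864). The sign of this small value depends on the setting. In GENCODE 27.3% of Ube3a's exonic bases are also covered by exons of other genes, Snhg14 on the opposite strand among them. The library kit does not mark strand, so sense and antisense reads could not be separated there.

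Atp10a encodes a P-type ATPase that flips phospholipids, and whether it is imprinted in mouse brain has been disputed. It spans 58656142 to 58830244 on the plus strand, before Ube3a. It stood at 27.2, 25.96 and 25.3 CPM in null cells, from 580, 554 and 567 counts, and at 28.4, 26.7 and 20.8 CPM in wild type cells, from 732, 627 and 210 counts. The null libraries lay among the wild type ones, whose spread came from replicate 3. The log2 fold change was 0.03 ± 0.11 (SE; 95% interval -0.22 to 0.29, edgeR adjusted p = 0.881), and without wild type replicate 3 it was -0.08.

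Sample names number wild type replicates 1 and 2 in another range than the other 4 libraries, and the labels do not say what these numbers are. Between the 3 null libraries and wild type replicate 3, which share a range, the log2 fold change was 1.07 for Ndn, 1.12 for Peg12 and 1.19 for Mkrn3, all called by edgeR in a fit with 0.853% of genes called higher. The lone wild type library there is assumed to vary like the null ones. In the same set Snrpn stood at 1.89 (adjusted p = 0.180, from 3 wild type counts), Magel2 at 0.40, Atp10a at 0.33 (adjusted p = 0.176) and Ube3a at 0.02. The other range holds wild type libraries only, so it gives no comparison. Once wild type replicate 3 is left out, the ranges coincide with genotype, and the calls of that fit cannot separate them.

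Per kilobase of the deposited gene length, the records of Peg12 and Ndn stood highest among the members, and that of Magel2 lowest of those detected. In null cells Peg12 stood at 106 ± 3.36 RPKM and in wild type cells at 56.2 ± 6.58 RPKM (mean ± SD, n = 3). Ndn followed with 89.96 ± 3.38 RPKM in null and 45.3 ± 2.24 RPKM in wild type cells, and Ube3a with 37.9 ± 1.13 RPKM in null and 38.4 ± 1.55 RPKM in wild type cells. Mkrn3 stood at 7.98 ± 0.19 RPKM in null cells, above Atp10a at 4.78 ± 0.18 RPKM. In wild type cells the order of these 2 was turned, 4.06 ± 0.48 RPKM for Mkrn3 and 4.63 ± 0.72 RPKM for Atp10a, with ranges that overlapped. A330076H08Rik came next, at 3.44 ± 0.38 RPKM in null and 0.800 ± 0.390 RPKM in wild type cells. Snrpn had 0.472 ± 0.036 RPKM in null and 0.218 ± 0.081 RPKM in wild type cells. Its count does not measure the transcript shared with Snurf, so the place of Snrpn in this order is uncertain. Magel2 came last with 0.255 ± 0.074 RPKM in null and 0.154 ± 0.033 RPKM in wild type cells, where its range overlapped that of Snrpn.

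**Figure D2:**
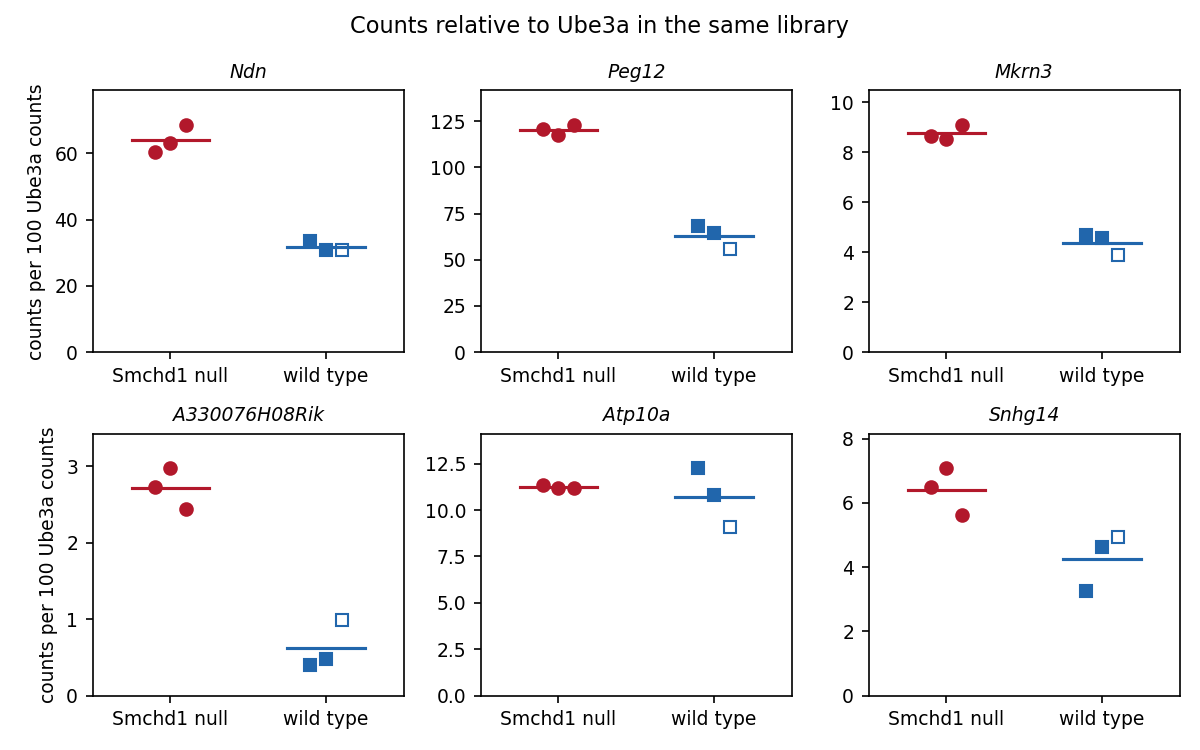
Counts of 6 genes per 100 Ube3a counts of the same library (linear axes from 0), with Smchd1 null libraries as red circles on the left, wild type libraries as blue squares on the right, wild type replicate 3 open, and lines at the group means. Ndn lies between 60.3 and 68.6 in null and between 30.8 and 33.5 in wild type libraries, and Atp10a overlaps.

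A ratio of 2 genes within a library does not depend on how libraries are scaled, and Ube3a served as the denominator, chosen after its values were seen. Ndn had 60.3, 63.2 and 68.6 counts per 100 Ube3a counts in null libraries, and 33.5, 30.9 and 30.8 in wild type libraries. Wild type replicate 3, which differs most in composition, gave almost the same Ndn ratio as wild type replicate 2. For Peg12 the ratios were 121, 117 and 123 in null and 68.3, 64.3 and 55.9 in wild type libraries. Mkrn3 averaged 8.75 ± 0.30 in null and 4.38 ± 0.42 in wild type libraries, and A330076H08Rik 2.72 ± 0.26 in null and 0.627 ± 0.322 in wild type libraries (mean ± SD, n = 3). Atp10a averaged 11.3 ± 0.10 in null and 10.7 ± 1.59 in wild type libraries. The ratios of Ndn, Peg12, Mkrn3 and A330076H08Rik did not overlap between genotypes. An exact two-sided permutation test over the 6 libraries gave p = 0.1 for each of these 4, the smallest p that 3 against 3 allows, and p = 0.7 for Atp10a. The ratio of Snhg14, which edgeR did not call, also did not overlap between genotypes, with p = 0.1 in the same exact permutation test. A result of this kind is therefore not particular to the called members.

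**Figure D3:**
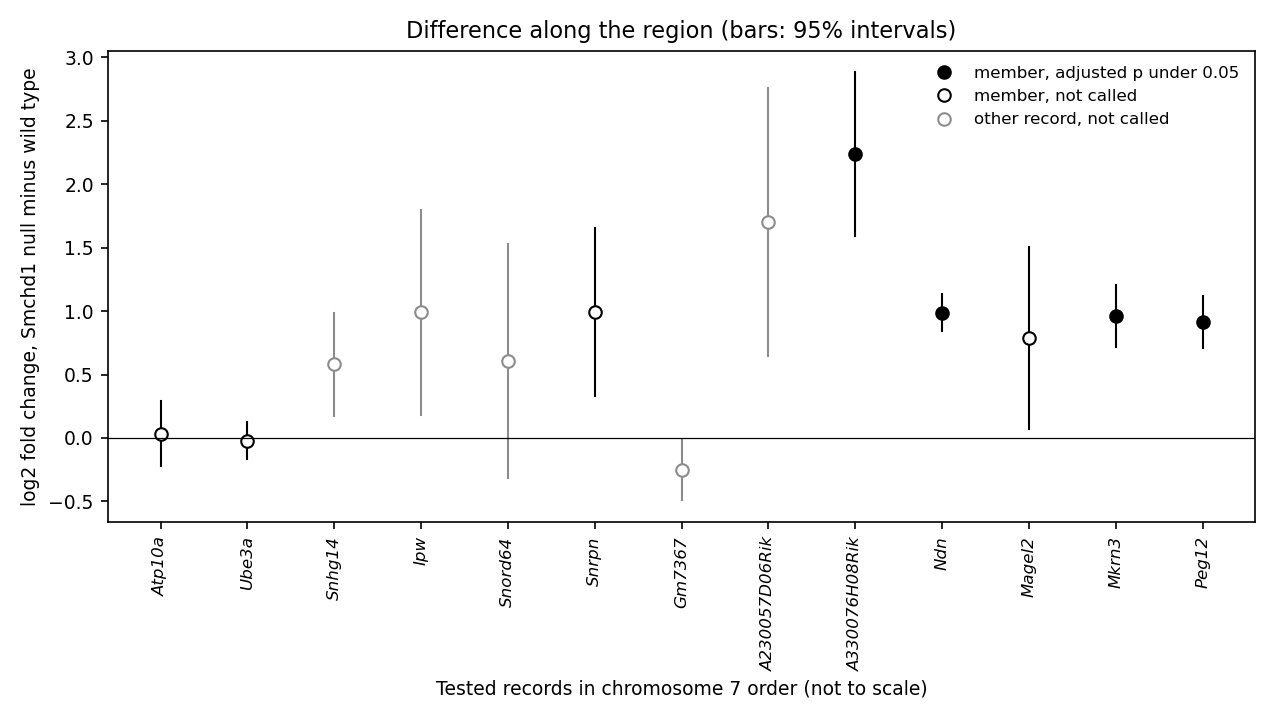
Log2 fold change, Smchd1 null minus wild type, of every tested record between the start of Atp10a and the end of Peg12, in chromosome order and not to scale. Points are edgeR estimates with 95% intervals, black for members, grey for other records, and filled where the adjusted p was under 0.05. The filled points are A330076H08Rik, Ndn, Mkrn3 and Peg12.

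None of the other noncoding transcripts tested in the domain passed the test. A230057D06Rik (log2 fold change 1.70, given above), Ipw, Snord64 and Snhg14 lay above 0, and only the pseudogene Gm7367 lay below. Snhg14, the host transcript of the snoRNA clusters and the source of the Ube3a antisense RNA, had 15.6, 16.4 and 12.7 CPM in null and 7.52, 11.4 and 11.3 CPM in wild type libraries. The groups did not overlap, and 11.4% of all genes tested likewise had every null library on top. Per 100 Ube3a counts Snhg14 averaged 6.40 ± 0.74 in null and 4.27 ± 0.89 in wild type libraries (SD, n = 3). In log2 terms its level differed by 0.58 ± 0.18 (SE, edgeR adjusted p = 0.183), and it was called without wild type replicate 3 (0.66, adjusted p = 0.0142). It stood at 0.39 without wild type replicate 1 (adjusted p = 0.514) and at 0.39 in the libraries named 11 to 14 (adjusted p = 0.276). Ipw, a noncoding RNA of the same transcription unit, stood at 1.01 ± 0.37 CPM in null and 0.485 ± 0.080 CPM in wild type cells (SD, n = 3; log2 fold change 0.99 ± 0.36, adjusted p = 0.219). Of the 3 tested records on this list, Snord64 being the other, 0 were called, 2 had an unadjusted p under 0.05, and the median log2 fold change was 0.61. A230057D06Rik was outside this list. Snord64 overlapped between the groups. Over all genes tested, 2642 or 18.6% had an unadjusted p under 0.05, the share against which this and the later counts at that limit stand. Gm7367, a transcribed pseudogene inside the Snrpn locus and outside that list, lay lower (log2 fold change -0.26 ± 0.10, edgeR adjusted p = 0.246). It stood at 12.1 ± 0.73 CPM in null and 14.4 ± 1.02 CPM in wild type cells, with no overlap. Of all genes tested, 10.6% had every null library below every wild type library.

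Outside the domain, values are given for a gene on either side. Otud7a, a deubiquitinase gene beyond Peg12, stood at 9.09 ± 0.86 CPM in null and 5.35 ± 1.58 CPM in wild type cells (SD, n = 3; log2 fold change 0.81 ± 0.20, edgeR adjusted p = 0.128). For Otud7a wild type replicates 1 to 3 stood at 4.73, 4.18 and 7.14 CPM. It was called under 4 of 17 alternatives, among them DESeq2 (adjusted p = 0.0227). Without wild type replicate 3 it was called by edgeR at 1.02 (adjusted p = 2.01e-05), and in the libraries named 11 to 14 it stood at 0.35. Herc2, whose human protein binds UBE3A and stimulates it, lies before Atp10a. Its log2 fold change was 0.06 ± 0.06, with 242 ± 4.83 CPM in null and 231 ± 7.70 CPM in wild type cells.

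Relatives of the members elsewhere in the genome were set beside them. The other makorins, Mkrn2 and Mkrn1, had log2 fold changes of -0.13 ± 0.09 and 0.20 ± 0.16 (SE), and neither was called. The other FRAT genes lay at -0.54 ± 0.15 for Frat2 (edgeR adjusted p = 0.169) and -0.12 ± 0.13 for Frat1. Frat2 was called lower without wild type replicate 3 (-0.65, adjusted p = 0.000265) and stood at -0.20 in the libraries named 11 to 14 (adjusted p = 0.688). In the MAGE family 8 genes were tested and Ndn was the 1 called. X-linked Magee2 stood at 2.40 ± 0.28 CPM in null and 0.966 ± 0.465 CPM in wild type cells (log2 fold change 1.44 ± 0.31, edgeR adjusted p = 0.102). The fold change of Magee2 was 0.69 in the libraries named 11 to 14, and 1.75 without wild type replicate 3. Maged1, the most abundant member of the family, stood at -0.27 ± 0.07 (edgeR adjusted p = 0.153). Among the 8 core Sm genes of the splicing machinery 0 were called, 3 had an unadjusted p under 0.05, and the median was -0.20. These 3 were Snrpn itself, which lay higher, and Snrpd2 (-0.21 ± 0.08) and Snrpd3 (-0.36 ± 0.13). Atp10d and Atp10b, paralogs of Atp10a, stood at 0.39 ± 0.12 and 1.37 ± 0.53, and neither passed.

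Proteins known to work with the members, and regulators of imprinting, gave no call in the reported fit. Of 20 tested partner genes 0 passed edgeR, 2 had an unadjusted p under 0.05, and the median log2 fold change was -0.09. The smallest p values there were those of Trp53 (-0.36 ± 0.10) and Cdkn1b (-0.33 ± 0.11). Of 18 tested genes that set or keep imprints 0 passed, 6 had an unadjusted p under 0.05, and the median was -0.07. Lrif1, whose protein binds SMCHD1, came closest at 0.68 ± 0.12 (edgeR adjusted p = 0.0505). It was called under 5 of 17 alternatives, among them DESeq2 (adjusted p = 0.00106), limma-voom (adjusted p = 0.0217) and the fit without wild type replicate 3. Under 12 it was not called, among them the replicate block (edgeR adjusted p = 0.116) and the sample-name term, where Lrif1 stood at 0.49. Zfp57, a zinc finger protein that protects imprints after fertilisation, stood at 16.4 ± 1.98 CPM in null and 12.01 ± 1.82 CPM in wild type cells (SD, n = 3; adjusted p = 0.189). Imprinted genes outside the domain gave 0 calls in 44 tested with edgeR, 15 at an unadjusted p under 0.05, 2 with DESeq2 and 0 with limma-voom, and a median of -0.02. Without wild type replicate 3, edgeR called 11 of them higher and 13 lower.

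Neuronal markers are given here because several members are neuronal genes. Summed over 13 markers they came to 1481 to 1518 CPM in null and 1584 to 1612 CPM in wild type libraries. Most of that sum came from Map2, at 981 ± 16.2 CPM in null and 1084 ± 23.1 CPM in wild type cells, and from Gap43, at 369.8 ± 9.79 CPM in null and 368 ± 17.5 CPM in wild type cells. The median log2 fold change of the 12 tested was 0.20, on the other side of 0 from the sum. The neurofilament gene Nefl was called higher, 1 of 12 tested, with 2.82, 1.97 and 2.90 CPM in null and 0.543, 0.725 and 0.893 CPM in wild type libraries (edgeR adjusted p = 0.0228). Nefm (0.71 ± 0.17), Dcx (1.08 ± 0.87), Elavl3 (0.54 ± 0.32), Tubb3 and Map2 were not called. Rbfox3, a marker of mature neurons, stood at 0.571 ± 0.317 CPM in null and 1.05 ± 0.24 CPM in wild type cells, and was not called either. Astrocyte markers summed to 917 to 949 CPM in null and 737 to 1038 CPM in wild type libraries. Of the 7 tested 0 were called, with a median of 0.45, and they went both ways, Slc1a2 at 0.70 ± 0.51 and Gja1 at -0.68 ± 0.18. Oligodendrocyte lineage markers summed to 775 to 826 CPM in null and 589 to 903 CPM in wild type libraries. Their Pdgfra stood at 112.6, 128 and 137 CPM in null, and at 17.1, 18.3 and 167 CPM in wild type replicates 1 to 3. In this respect wild type replicate 3 sat with the null libraries, as it partly did for A330076H08Rik, A230057D06Rik and Otud7a and not for Ndn, Mkrn3 or Peg12. The part of these cell type differences in the results was not tested.

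Over the 6 libraries the pattern of Ndn was most like those of Mkrn3 and Peg12. After each gene was centred on its own mean, their log2 CPM differed from that of Ndn by a root mean square of 0.07 and 0.08. For A330076H08Rik, also called higher, the value was 0.74. The search took in 12171 tested genes outside the domain whose average log2 CPM was 1 or more, and the closest 5 were Zfp991 (0.10), Pcdhb18 (0.14), Tcaf2 (0.14), Asap3 (0.14) and Pcdhb21 (0.17). Zfp991 is a zinc finger gene on chromosome 4, and Pcdhb18 and Pcdhb21 are clustered protocadherin genes on chromosome 18. These 3 were called higher in null cells at log2 fold changes of 1.12, 1.07 and 1.30, while Tcaf2 and Asap3 did not pass. Likeness over 6 libraries of 2 genotypes mostly reads the genotype difference, and it is a description.

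**Figure D4:**
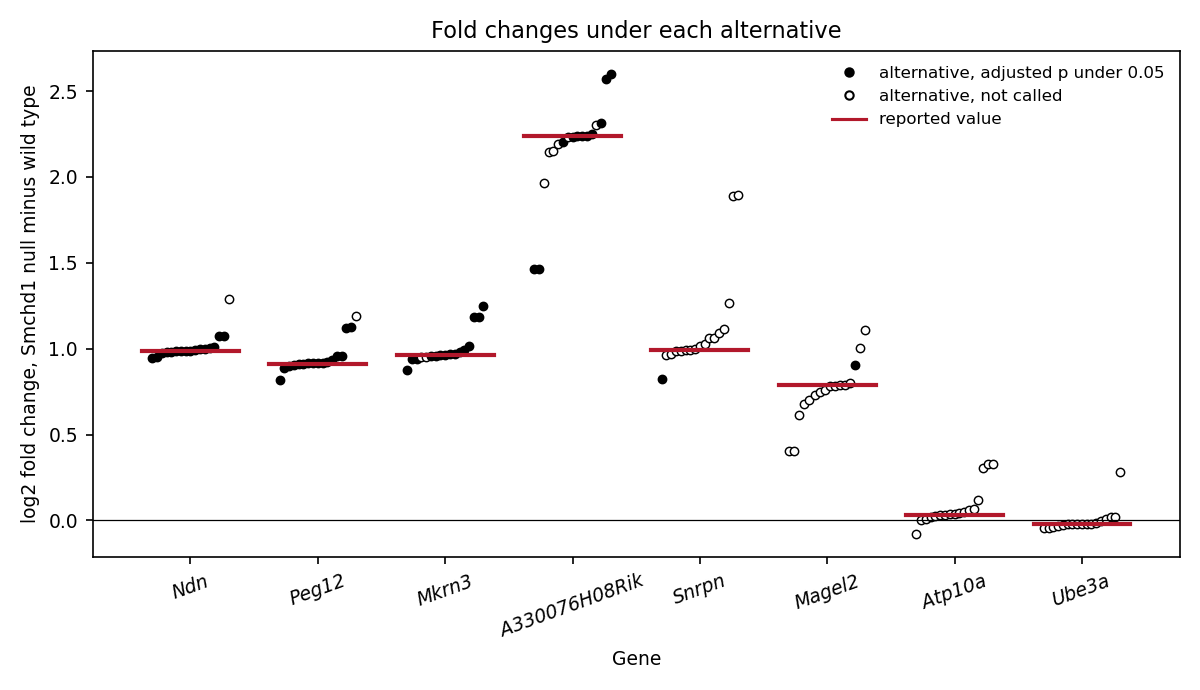
Log2 fold change, Smchd1 null minus wild type, of the tested members under each alternative processing (points, ordered by value, filled where the adjusted p was under 0.05), with the reported value as a red line. Ndn and Peg12 stay between 0.82 and 1.29, A330076H08Rik ranges from 1.46 to 2.60, Ube3a from -0.05 to 0.29 and Atp10a from -0.08 to 0.33.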

How the data were processed

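RNA-seq counts of neural stem cells were analysed, from 3 Smchd1 null and 3 wild type libraries, each made from 1 µg of total RNA with the TruSeq RNA v2 kit per the labels' protocols. The authors deposited raw counts per Entrez gene with a gene length beside each (unit other, in bases). Build mm10 and the programs featureCounts, limma 3.22.0, edgeR 3.8.2 and CASAVA 1.8.2 are listed, without their roles, per the submitters' processing notes. The sources used here do not name an aligner or a gene annotation. The test on the deposited counts was that of edgeR 4.0.16, run in R 4.3.3 (filterByExpr, TMM, robust quasi-likelihood fit, genotype as the only term), adjusted over all 14207 tested genes, threshold 0.05. The test was tried first on simulated data. CPM use TMM-scaled depth, and RPKM divide CPM by the deposited length in kb. Standard errors come from the F statistic.

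Symbols and coordinates came from RefSeq GRCm38.p6 (25275 of 27179 IDs matched, 93.0%), whose chromosomes are those of mm10, and exons from GENCODE M21. Promoter and miRNA sequences are RefSeq's, and all 9 members had a promoter window. Alternatives were DESeq2 1.42.0, limma-voom (limma 3.58.1), no robust moderation, 2 other scalings, 2 other filters, leaving out genes above 1% of a library, a block for the replicate number, a term for the sample-name numbers (113 and 114 against 11 to 14), and leaving out each library. Keeping only the libraries named 11 to 14 was added after the data had been seen.

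The members and lists were chosen with earlier results of these data known. Beside the members, the text names each list's called genes or its 2 with the smallest p, and the 5 genes most like Ndn. Any other gene named, such as Magee2, Maged1, Otud7a, A230057D06Rik, Herc2 or Pdgfra, was chosen after its values were seen. One result on a flanking gene, and the counts over the flanking list, are not reported here. Intervals on pooled counts and floors cover counting error only, since reads carried no molecular identifiers.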

Additional observations from a re-analysis of the deposited data

How the results depend on the processing

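Ndn, Peg12, Mkrn3 and A330076H08Rik kept their direction under all 17 alternatives. The members called numbered 4 of 8 in the reported fit, 2 when library totals alone set the scale, and 2 to 6 when 1 library was left out. All genes called numbered 82 (72 higher, 10 lower), against 391 with DESeq2, 145 with limma-voom, 222 without a filter, 54 with the replicate block, 186 with the sample-name term, 376 among the libraries named 11 to 14, and 30 to 5676 when 1 library was left out. Library totals alone called 457 (454 higher, 3 lower) and moved the median of all genes to 0.32. Relative to that median Ndn stood at 0.97, Peg12 at 0.87, Mkrn3 at 0.93, A330076H08Rik at 2.28, Ube3a at -0.03 and Atp10a at -0.01, and Ndn (adjusted p = 0.0695) and Peg12 (0.124) lost their calls. Ube3a turned sign with library totals (0.29), with the sample-name term (0.019) and in the libraries named 11 to 14 (0.018), and ranged from -0.046 to 0.010 when 1 library was left out. Atp10a ranged from -0.079 to 0.12 in the same way. The cause of these changes was not tested. Same-numbered deviations from the group means correlated at -0.01, 0.03 and -0.04, and differently numbered ones at -0.04 to 0.05. Wild type replicate 3 dominates the spread around the wild type mean, so these values cannot exclude a pairing by replicate number. With the replicate block A330076H08Rik lost its call (2.23, adjusted p = 0.0518), and no other member's call changed. Magel2 and Snrpn had only 117 and 107 counts over all 6 libraries, which limits the precision of their fold changes.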
